A study of Mus musculus with 22 samples.

Results

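Choroid plexus of the hindbrain ventricle, the fourth (4V ChP), from adult mice was compared between animals injected with Cre-Tat protein and animals injected with vehicle. The members were the 4 tissue pools, of 14 in the series, whose files carried the library numbers of the Cre-Tat 4V and vehicle 4V libraries, with 2 pools (A and B) in each group. They filled 8 of the 22 deposited files, since each library was read in 2 sequencing runs. All mice carried *Otx2*lox/lox, a conditional allele that Cre recombinase can delete, on a background labelled S129, and were 3 months old. Each pool labelled Cre-Tat came from 5 mice and each vehicle pool from 4 mice, with tissue taken 15 days after injection into the lateral ventricles. The study's design thus asked which transcripts of adult 4V ChP change when *Otx2* is deleted there, and the same was done for lateral ventricle choroid plexus (LV ChP). Pools of animals hide the spread between mice. For the Cre-Tat pools, tissue had been chosen by a PCR test of lowered *Otx2*.

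The choroid plexus is a fold of vascularised tissue in each brain ventricle, covered by an epithelium that secretes cerebrospinal fluid and forms the barrier between blood and that fluid. Its cells export proteins such as transthyretin, pump ions and water, take up metals and vitamins, and carry motile or sensory cilia. A stroma of fibroblasts, vessels and macrophages lies beneath them. OTX2 is a homeodomain transcription factor, required for the plexus to form in the embryo and still made by the adult epithelium.

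Totals over all transcripts were 35382197 and 39070251 counts in Cre-Tat pools A and B, against 29551331 and 22750019 in the vehicle pools. Of the 8 files, 7 were attached to a sample record that names another library. With runs joined by library number, the 2 runs of a pool differed little more than counting noise allows, with a chi-square over its degrees of freedom of 1.0 to 1.04. Joined as attached, that ratio was 21.1 to 34.0, so the library number was used. Levels are given as counts normalized to the mean scaled library of the 4 pools, on the transcript of each gene with the most counts. Unless a sentence says otherwise, "rose" and "fell" mean an adjusted p under 0.05 in the quasi-likelihood test of edgeR, adjusted by Benjamini-Hochberg over 14550 genes. An exact permutation test on 1 gene, two-sided, could reach no lower than p = 0.333 with 2 pools a group.

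Each group had a pool that stood apart in some way. Cre-Tat pool B held few Y-linked transcripts: *Ddx3y* was counted at 207 there, against 1059 in Cre-Tat pool A and 1476 and 1454 in the vehicle pools. The same was seen in LV ChP, where *Ddx3y* was at 559.9 in Cre-Tat pool B and 2207 in pool A. The methods describe the animals as males and females in equal number, without giving the makeup of each pool. Cre-Tat pool A held the most transcripts of blood granulocytes. The 6 neutrophil markers summed to 272 there, 11.7 in Cre-Tat pool B and 5.82 and 7.18 in the vehicle pools, with *Ly6g* at 0 in every pool. Vehicle pool A had the most neuronal marker counts, 463 against 231 in vehicle pool B and 243 and 224 in the Cre-Tat pools. The part of these differences in the results below was not tested.

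*Otx2* itself (ENSMUSG00000021848, minus strand, chr14:48657677-48673819, GRCm38) was counted at 6054 and 6110 in the vehicle pools and at 18988 and 19006 in the pools labelled Cre-Tat. The groups did not overlap, and the change, a log2 fold change of 1.64 ± 0.15 (SE), ran against the label of a knockdown (edgeR adjusted p = 1.15e-06). In all, 8 of 8 *Otx2* transcripts in the files rose, by 1.16 on the log2 scale for Otx2-206 and by 1.51 to 1.71 for the others. The counts cover whole transcripts, each with sequence outside the exon whose deletion was measured in the study, so they cannot check the deletion. The groups keep the names of their labels, and each direction below is drawn from pools that are named by label only.

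Between the pools labelled Cre-Tat and the vehicle pools, 1554 of 14550 genes differed (10.7%), 829 of them higher (5.7%) and 725 lower (4.98%) in the Cre-Tat pools. The increases were larger: 381 genes rose more than 2-fold, 133 more than 4-fold and 57 more than 8-fold, against 163, 17 and 0 for decreases. The median change of a called gene was 0.94 on the log2 scale for increases and 0.71 for decreases. In 827 of the 829 increases and in all 725 decreases the 2 groups did not overlap. Calls favour genes whose groups separate, and with 2 pools a group unchanged genes can separate too. These counts therefore add no support to the calls. Scaling by total counts in place of the trimmed mean of M values (TMM) moved the median log2 change over all genes from 0.01 to 0.15, and the split from 829 higher and 725 lower to 1316 and 426. Without vehicle pool A, 548 genes were higher and 357 lower.

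Of the 829 genes that rose, 40 had at most 3 counts in each vehicle pool. *Tmigd1*, which encodes a transmembrane protein with immunoglobulin domains, had no count in either vehicle pool and normalized counts of 36.0 and 32.1 in the Cre-Tat pools, at least 8.74-fold above a floor of 3 counts per pool. The non-coding gene *9030619P08Rik* had the same pattern, with 28.3 and 30.6, at least 7.55-fold above the floor. *Slitrk6*, a transmembrane protein known from neurite growth, was counted at 1.16 and 8.61 in the vehicle pools and 153 and 104 in the Cre-Tat pools. These 3 genes stayed below 10 in both vehicle pools and above 25 in both Cre-Tat pools.

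Other large increases started from more counts in vehicle, among them that of *Gpx3*, a secreted glutathione peroxidase. Its normalized count was 155 and 221 in the vehicle pools and 9033 and 13181 in the Cre-Tat pools, a 59.1-fold difference of means. *Fmod*, the collagen-binding proteoglycan fibromodulin, went from 252 and 340.1 to 7974 and 9924, and *Cacnb3*, a subunit of voltage-gated calcium channels, from 18.6 and 18.7 to 747 and 857. In each of these genes the lower Cre-Tat pool was over 20 times the higher vehicle pool. *Mup5*, a major urinary protein gene, stood at 31.4 and 21.5 against 1328 and 838, but its family holds near-identical copies among which reads may be split. The immunoglobulin genes *Ighg1*, *Ighg2c* and *Jchain* completed the largest increases, and there the 2 Cre-Tat pools differed widely: *Ighg1* was at 932 in pool A and 136 in pool B, against 2.33 and 0 in vehicle, and *Ighg2c* lost its call without Cre-Tat pool A. *A730020M07Rik* and *BC023105* also rose, from at most 1.44 in a vehicle pool to at least 16.4 in a Cre-Tat pool.

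**Figure D1:**
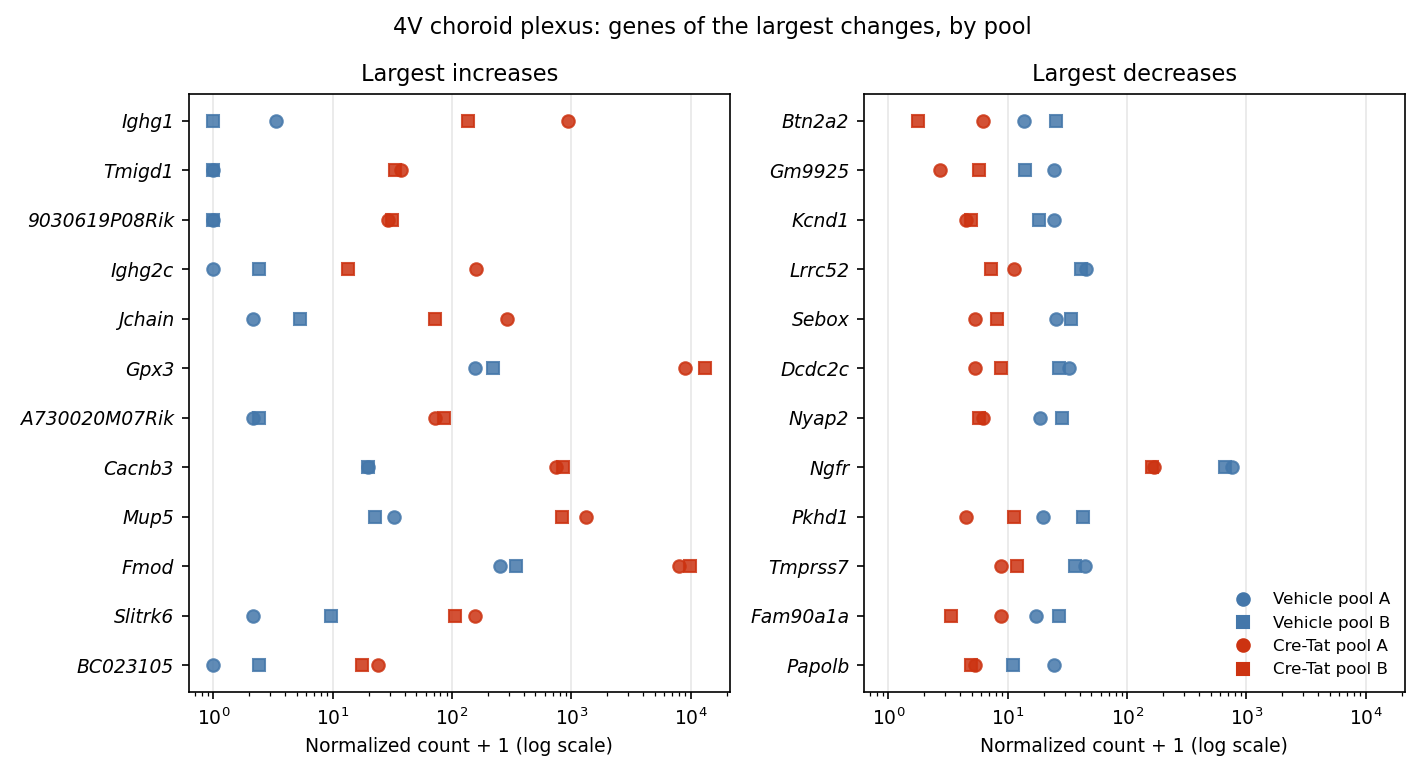
Normalized counts plus 1, on a log axis, in each 4V pool for the 12 genes of the largest increase (left) and the 12 of the largest decrease (right) among called genes with a mean count above 10 whose groups did not overlap. Circles are pools A and squares pools B, blue for vehicle and red for Cre-Tat. *Gpx3* and *Fmod* reach 7974 to 13181 in the Cre-Tat pools, whereas most genes of the largest decrease stay below 50 in every pool.

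The largest decreases were of weakly expressed genes. Of the 12, only *Ngfr*, the p75 neurotrophin receptor, had over 50 counts in any pool. It fell from 761 and 656 in the vehicle pools to 167 and 159.8 in the Cre-Tat pools, a log2 fold change of -2.12 ± 0.16 (SE) (edgeR adjusted p = 8.5e-08). *Lrrc52*, an auxiliary subunit of potassium channels, fell from 44.2 and 40.2 to 10.3 and 6.27. *Sebox*, a homeobox gene, fell from 24.4 and 33.0 to 4.29 and 7.05. The other 9 were *Btn2a2*, *Gm9925*, *Kcnd1*, *Dcdc2c*, *Nyap2*, *Pkhd1*, *Tmprss7*, *Fam90a1a* and *Papolb*, with log2 fold changes of -2.61 to -2.03. Each of the 9 lost its call in at least 1 of the fits that left out a pool, and *Sebox* lost it without vehicle pool B.

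Transcripts that mark the choroid plexus epithelium were lower as a set in the Cre-Tat pools. Of 12 markers, 11 fell and *Otx2* alone rose, with a median log2 fold change of -0.93, against 0.01 over all genes tested. Their normalized counts summed to 3455539 and 2893676 in the vehicle pools and to 1578872 and 1378144 in the Cre-Tat pools. *Ttr*, which encodes the thyroid hormone carrier transthyretin, made up most of that sum: it was counted at 2640580 and 2156525 in vehicle and 1166003 and 950212 in Cre-Tat, or 16.1% and 14.2% against 8.05% and 6.71% of gene counts. *Enpp2*, the lysophosphatidic acid producing enzyme autotaxin, fell from 664703 and 587088 to 317167 and 322041. *Kl*, the ageing-related coreceptor klotho, fell from 39372 and 43709 to 20158 and 23539. In bulk tissue, fewer cells of a type and less RNA per cell cannot be told apart. Without vehicle pool A, 6 of the 12 were called lower, and *Ttr* and *Enpp2* were not among those called.

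Markers of other cell types did not move as one. The 12 fibroblast and meningeal markers summed to 11212 and 11589 in vehicle and 11498 and 10343 in Cre-Tat, with 1 gene higher (*Col1a2*) and 1 lower (*Pdgfra*), or 2 lower without Cre-Tat pool A. Endothelial markers summed to 2417 and 2719 against 2388 and 2809. *Plvap* alone was called higher, and 0 endothelial markers were called without Cre-Tat pool B, without vehicle pool A or in DESeq2. Mural cell markers gave no call among 8 tested. For ependyma, the ciliated lining of the ventricles, *Tm4sf1*, *Foxj1* and *Dynlrb2* of 7 tested rose, and the sum was 4396 and 3668 in vehicle and 7478 and 6574 in Cre-Tat. Astrocyte markers overlapped in their sums, 2388 and 1949 against 2188 and 2205, with *Slc1a3*, *Gfap* and *Aqp4* higher and *Aldh1l1* lower; without vehicle pool B, 1 of the astrocyte markers was higher, and without vehicle pool A 0 were lower. Of 5 neuronal markers tested, *Syt1* alone was called lower, but 0 were called without vehicle pool A, with total counts or in DESeq2, and 4 were lower without vehicle pool B.

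**Figure D2:**
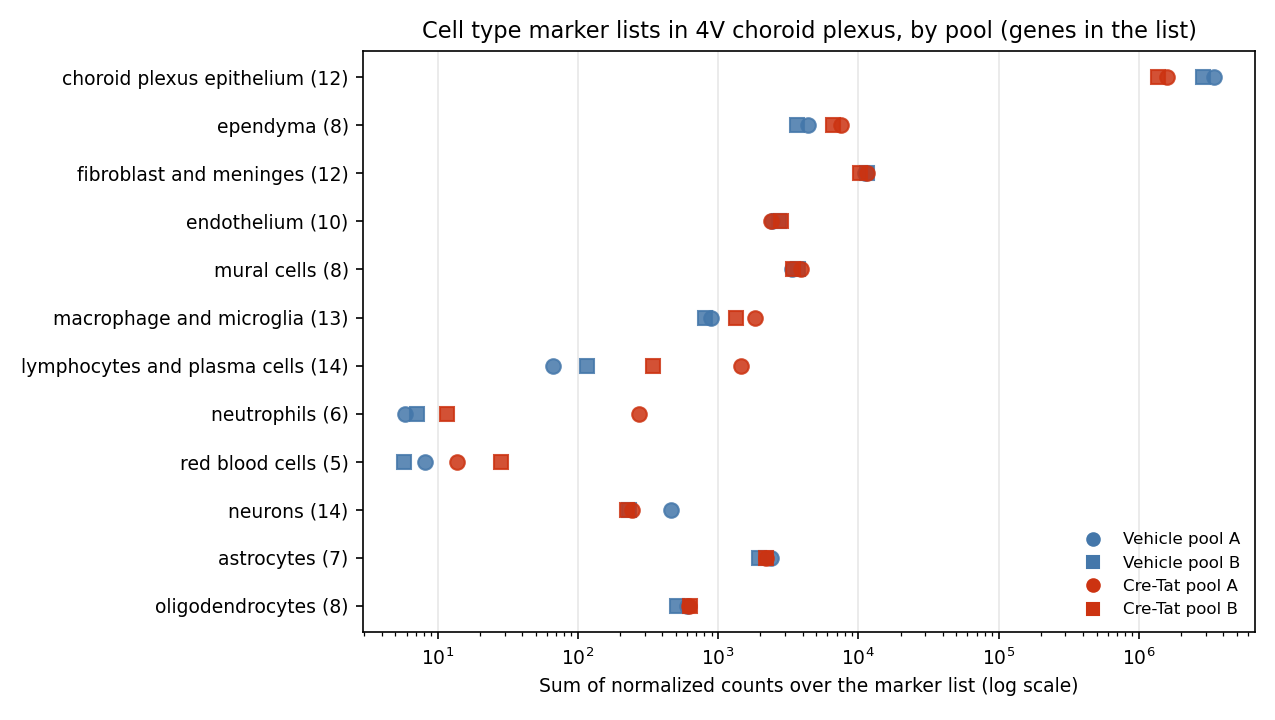
Sum of normalized counts over each cell type marker list, on a log axis, in the 2 vehicle pools (blue) and the 2 Cre-Tat pools (red) of 4V ChP; the number of genes in each list is in parentheses. The epithelial sum is lower in both Cre-Tat pools, the macrophage and lymphocyte sums are higher, and the neutrophil sum is high in Cre-Tat pool A alone, at 272.

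In the list of genes for thyroid hormone and retinoid handling, 6 of 20 tested fell and 1 rose, with a median log2 fold change of -0.23. Beside *Ttr*, they included *Stra6*, the cell-surface receptor for retinol-binding protein, at 1674 and 1343 in vehicle and 719 and 742 in Cre-Tat. The thyroid hormone transporter *Slco1c1* fell by less, from 11825 and 9593 to 7434 and 6977. The retinol dehydrogenases *Rdh5* and *Rdh11* fell, whereas *Rdh10* rose (log2 fold change 0.60 ± 0.14). Without vehicle pool A, 2 members were called lower, and *Ttr*, *Slco1c1* and *Rdh5* lost their calls.

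Genes of water and ion transport fell more often than they rose, 14 against 5 of 39 tested. *Slc26a7*, an anion exchanger, showed the largest decrease, from 862 and 885 in vehicle to 285 and 273 in Cre-Tat. *Aqp1*, the water channel of the epithelium's apical face, fell from 7555 and 5826 to 3498 and 2762. The bicarbonate transporters *Slc4a2* and *Slc4a5*, the potassium channel genes *Kcne2* and *Kcnj13*, the cation channel *Trpm3* and the carbonic anhydrases *Car2* and *Car12* fell as well, with log2 fold changes of -1.01 to -0.49. *Slc4a10*, the sodium-driven bicarbonate transporter, did not pass the test, at 31746 and 30692 against 27507 and 27840. The increases included genes best known from astrocytes. *Mlc1*, a membrane protein of astrocyte endfeet, rose from 242 and 134 to 577 and 565, and *Aqp4* rose by 0.84 on the log2 scale. The sum of the 7 astrocyte markers, given above, did not separate the groups. Without vehicle pool A or B, 3 members were called higher.

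Of all 242 solute carrier genes tested, 38 fell and 14 rose, the latter close to the share of higher genes overall. With total-count scaling 28 were lower and 22 higher, and their median log2 fold change of -0.12 turned to 0.02. *Slc29a4*, a monoamine transporter, fell from 1534 and 1233 to 559 and 558, and *Slc16a8*, a lactate transporter, from 1022 and 667 to 379 and 330.5. The folate carriers *Slc19a1* and *Slc46a1* each fell, by 0.88 and 0.89 on the log2 scale, as did *Folr1*, the folate receptor of this epithelium (log2 fold change -0.79 ± 0.16). On the other side, the glutamate transporters *Slc1a6* and *Slc1a3* rose, *Slc1a6* from 3.49 and 12.9 to 153 and 103. The glucose transporter *Slc2a1* rose from 1919 and 1597 to 2822 and 2551. Leaving out vehicle pool A gave 22 lower and 10 higher.

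Among genes for copper, iron and zinc, 11 of 29 tested fell and 3 rose. *Steap1* and its relative *Steap2*, a metalloreductase of iron and copper, fell, *Steap1* from 1397 and 1139 to 357 and 315. The copper importer *Slc31a1* went from 8073 and 7398 to 3985 and 3878. Transferrin (*Trf*), the copper exporter *Atp7a*, the ferroxidase *Heph* and 4 zinc transporters (*Slc30a4*, *Slc30a5*, *Slc39a4*, *Slc39a12*) fell by 0.48 to 0.74 on the log2 scale. The opposite was seen for *Cp*, the ferroxidase ceruloplasmin, at 1851 and 2442 in vehicle and 5235 and 5335 in Cre-Tat, and for *Fth1*, the ferritin heavy chain (log2 fold change 0.88 ± 0.14). The third increase of the list was *Slc41a1*. Its relative *Slc41a2*, which the study lists under magnesium transport, was among the 11 that fell. The counts of this list are thus not of copper, iron and zinc genes alone. Outside this list, the metallothioneins *Mt1* and *Mt2* rose, *Mt2* from 133 and 112 to 598 and 744, whereas *Mt3* did not pass the test at 447 and 321 against 431 and 327. Only 4 of the metal genes were called lower without vehicle pool A, and 6 with total counts.

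Receptors for hormones, transmitters and neurotrophins fell in 12 of 27 tested, and 3 members rose. Beside *Ngfr*, *Crhr2*, a receptor for corticotropin-releasing peptides, fell from 535 and 509 to 153 and 184. *Htr2c*, the serotonin receptor that is abundant in this epithelium, fell from 13311 and 13947 to 5596 and 5894. *Prlr*, the prolactin receptor, was at 20131 and 26304 in vehicle and 7971 and 16329 in Cre-Tat, and its call was lost without Cre-Tat pool A. *Mc3r*, *Gabra4*, *Ednrb*, *Adora2b*, *Npr1*, *Npr3*, *Ghr* and *Vipr1* also fell, but *Vipr1* lost its call when any of the 4 pools was left out. *Adora1*, the A1 adenosine receptor, rose from 206 and 184 to 632 and 715, and the adenylyl cyclases *Adcy8* and *Adcy5* rose with it, *Adcy8* from 12.8 and 8.61 to 234 and 246.

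A short list held microRNA hairpins, the precursors that are cut to mature microRNAs, and the choroid plexus genes that host them. Of the 11 hairpins and host genes tested in it, 9 fell and none rose, with a median log2 fold change of -1.25. Over all 63 microRNA genes tested, 7 fell and 0 rose, so the decreases of the list do not describe hairpins in general. Of the hairpins that fell, 4 lie within the span of *Htr2c* (chrX:146962513-147197277, plus strand, GRCm38) and 1 within *Trpm3* (chr19:22139046-22995410, plus strand), in no exon of these genes. These counts can hold hairpin or host precursor RNA and do not measure the mature microRNA. The mature forms of the 5 hairpins that fell are printed from RefSeq (GRCm38.p6), since they show which small RNAs the decreases concern, with the seed (bases 2 to 8) in capitals.
mmu-miR-204-5p: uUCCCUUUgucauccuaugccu
mmu-miR-204-3p: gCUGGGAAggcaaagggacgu
mmu-miR-764-5p: gGUGCUCAcauguccuccu
mmu-miR-764-3p: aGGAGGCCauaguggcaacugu
mmu-miR-1912-3p: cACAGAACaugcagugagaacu
mmu-miR-1264-3p: cAAAUCUUauuugagcaccugu
mmu-miR-448-5p: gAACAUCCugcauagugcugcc
mmu-miR-448-3p: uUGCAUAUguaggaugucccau
*Mir448* was counted at 98.9 and 97.6 in vehicle and 27.4 and 29.8 in Cre-Tat (log2 fold change -1.77 ± 0.28). *Mir1264* fell from 202 and 258.3 to 69.4 and 90.8, and *Mir1912* from 269.8 and 274 to 101 and 107. No seed is shared among the printed forms, and the 4 hairpins in *Htr2c* moved with log2 fold changes of -1.77 to -1.25, beside -1.25 ± 0.15 for the exons of *Htr2c*. *Mir204*, in *Trpm3*, fell from 237 and 195 to 86.6 and 79.1, beside a log2 fold change of -0.88 ± 0.18 for *Trpm3*. *Mir1298*, also in *Htr2c*, did not pass the test at 29.1 and 24.4 against 14.6 and 8.62, and neither did *Mir34b*.

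**Figure D3:**
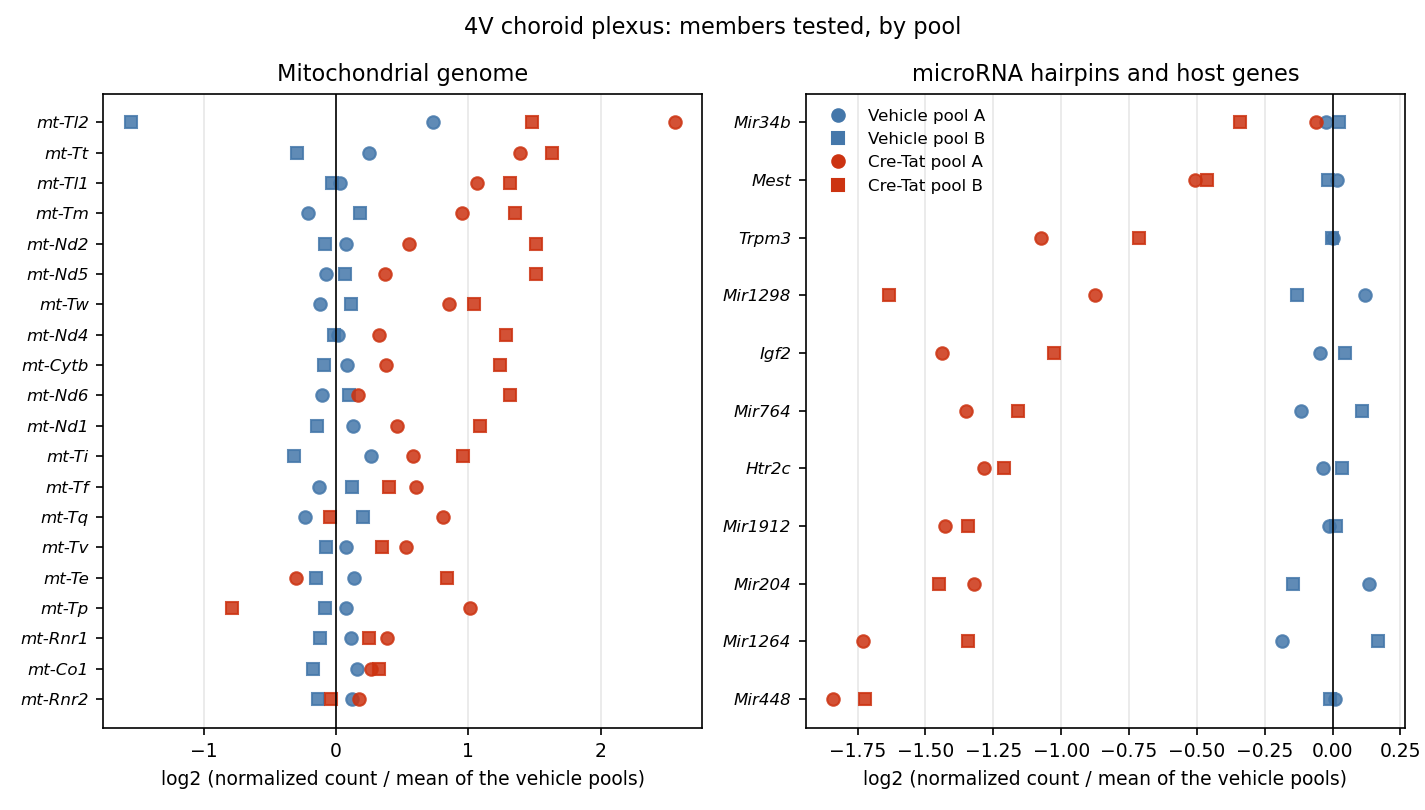
Log2 ratio of each 4V pool's normalized count to the mean of the 2 vehicle pools, for genes of the mitochondrial genome (left) and for microRNA hairpins with their host genes (right); circles are pools A, squares pools B, blue vehicle and red Cre-Tat. Mitochondrial messenger RNAs are highest in Cre-Tat pool B, and all hairpins and hosts lie below vehicle in both Cre-Tat pools, *Mir34b* least (log2 fold change -0.20, not called).

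In the IGF and insulin axis, *Igf2*, a growth factor secreted into the fluid, fell from 18748 and 20014 to 7146 and 9510, and its antisense RNA *Igf2os* from 80.3 and 103 to 26.6 and 27.4. Since these 2 genes overlap and the strand setting of the counting is not given in the sources used here, their reads may not be fully separated. *Ins2* lies beside *Igf2* and fell as well, as did the binding protein *Igfbp2*, from 32206 and 26127 to 14891 and 12353. *H19*, the imprinted non-coding RNA next to *Igf2*, rose from 15.1 and 17.2 to 41.1 and 57.2, and *Igfbp7* rose. The call of *H19* was lost without Cre-Tat pool B and without vehicle pool A, and the higher members numbered 0 without vehicle pool A and 1 without Cre-Tat pool B or vehicle pool B.

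Of 26 chaperones and stress genes of the endoplasmic reticulum, where secreted proteins fold, 7 fell, 1 rose and 18 did not pass the test. *Hspa5*, the chaperone BiP, was counted at 28297 and 22690 in vehicle and 17560 and 17395 in Cre-Tat. The disulfide isomerases *Pdia4* and *Pdia6*, the calcium-binding proteins *Calr* and *Rcn1*, and *Sdf2l1* and *Dnajb11* fell by 0.61 to 0.96 on the log2 scale. *Sel1l3* rose from 12.8 and 31.6 to 144 and 179. Enzymes of cholesterol and fatty acid synthesis fell in 6 of 24 tested with none higher, at a median of -0.42. They included *Msmo1* and *Cyp51* of the sterol pathway and *Elovl6* and *Fasn* of fatty acid synthesis. *Hspa5* lost its call without either vehicle pool and with total counts. Without vehicle pool A, 1 chaperone and 1 lipid gene were called lower. For the lipid genes, 11 were lower without Cre-Tat pool A and 2 without Cre-Tat pool B, and DESeq2 called 4. With total counts 2 lipid genes were lower, and with summed transcripts 2.

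Genes of tight junctions, polarity and adhesion fell in 10 and rose in 4 of 45 tested, and the median of -0.11 turned to 0.03 with total counts. *Crb3*, an apical polarity protein, fell from 464 and 399 to 181 and 178. Of the barrier proteins, *Cldn1*, *Ocln* and the tricellular junction gene *Marveld2* fell by 0.46 to 0.54 on the log2 scale, and *Marveld3* by 1.16. *Itga10*, a collagen-binding integrin, fell from 116 and 123 to 43.7 and 47.0, while the adhesion genes *Cadm1* and *Megf11* rose, *Megf11* from 116 and 172 to 1630 and 1596. The lower members numbered 6 without vehicle pool A, without vehicle pool B or with total counts.

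In the vesicle and secretion list, 7 of 33 fell and 3 rose. The granule proteins *Scg5* and *Pcsk2* fell, *Scg5* from 875 and 639 to 367 and 294, as did the motor *Myo5b*, which moves recycling endosomes to the apical face (log2 fold change -1.02 ± 0.13). All 3 increases were sorting receptors of the VPS10 family, *Sort1*, *Sorl1* and *Sorcs2*, with log2 fold changes of 0.67 to 1.34. *Sorcs2* was at 242 and 205 in vehicle and 562 and 572 in Cre-Tat.

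Collagens and other matrix genes moved in both directions. Of 35 collagen genes tested, 9 fell and 5 rose. The network collagens *Col8a1* and *Col8a2* were among the most abundant that fell, *Col8a1* from 8995 and 9622 to 4335 and 4977. The fibrillar collagens *Col1a2* and *Col11a1* rose, *Col11a1* from 9.30 and 7.17 to 74.6 and 96.3. Among 42 other matrix genes, 8 rose and 7 fell. *Layn*, the hyaluronan receptor layilin, rose from 154 and 225 to 996 and 869, *Pi15* from 18.6 and 31.6 to 199.7 and 182, and *Sned1* by 1.74 on the log2 scale. The heparan sulfatases parted, with *Sulf1* lower (log2 fold change -0.78 ± 0.14) and *Sulf2* higher (1.06 ± 0.17). Elastin (*Eln*), periostin (*Postn*) and *Lamb1* fell. Of these matrix genes, 3 were lower without vehicle pool A or with total counts, and without vehicle pool B, 3 collagens were higher.

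**Figure D4:**
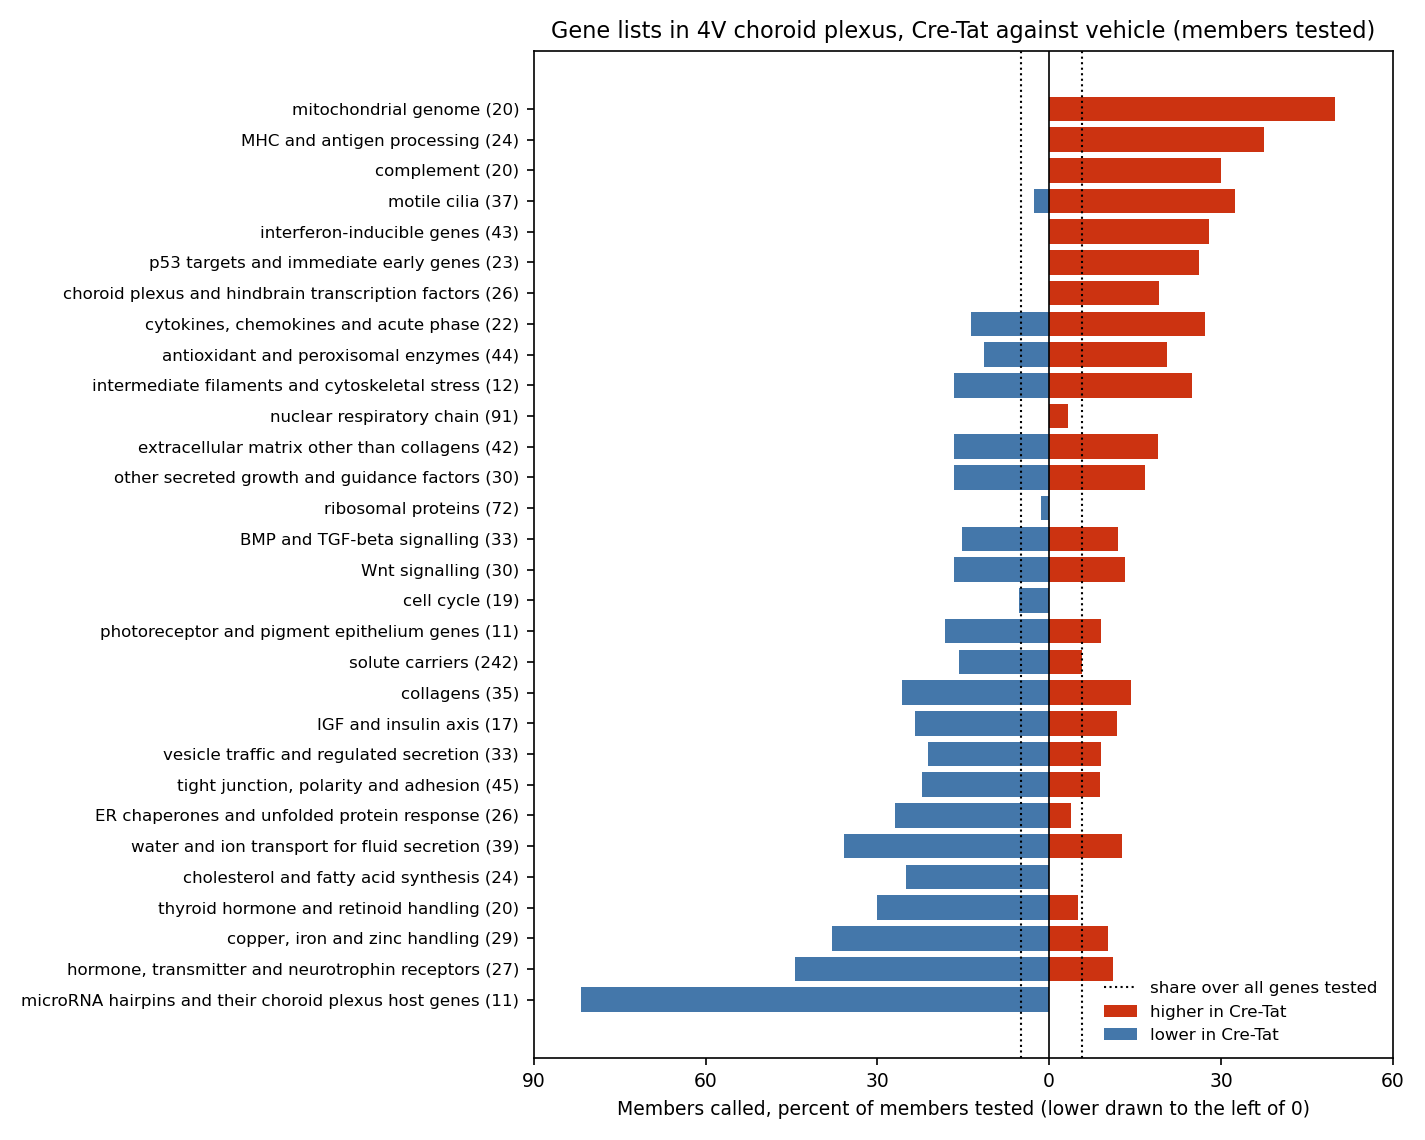
Share of tested members of each gene list called higher (red, right of 0) or lower (blue, left of 0) in Cre-Tat 4V pools, with the number of members tested in parentheses; dotted lines mark the shares over all genes tested, 5.7% higher and 4.98% lower. The mitochondrial genome and the MHC genes lead the increases, and the microRNA hairpins and the receptors lead the decreases.

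Secreted growth and guidance factors rose in 5 and fell in 5 of 30 tested. *Ndnf*, a secreted neurotrophic factor, went from 75.6 and 97.6 in vehicle to 2079 and 2184 in Cre-Tat, a 24.6-fold difference of means (edgeR adjusted p = 1.34e-11). *Edn3*, the ligand endothelin 3, rose from 328 and 336 to 1777 and 2266, while its receptor *Ednrb* fell (log2 fold change -1.05 ± 0.13). *Fgf1* rose from 158 and 199.5 to 771 and 811, and *Nrg1* and *Sema5a* also rose, whereas *Slit3*, *Sema3c* and *Fgf18* fell; *Nrg1* lost its call without Cre-Tat pool B or vehicle pool A. *Slit2* was at 3477 and 3714 in vehicle and 4123 and 5775 in Cre-Tat and did not pass the test. Of these factors, 3 were lower without vehicle pool A.

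Wnt genes gave 4 increases and 5 decreases among 30 tested. The secreted Wnt antagonists *Sfrp5*, *Sfrp1* and *Sostdc1* fell, *Sostdc1* from 6315 and 4893 to 2966 and 2784. The ligand *Wnt2b* rose from 9.30 and 15.8 to 69.4 and 65.8, and *Nkd1*, an inhibitor induced by Wnt signalling, rose from 43.0 and 50.2 to 117 and 121. In the BMP and TGF-beta list, 4 rose and 5 fell of 33. *Tgfb2* fell from 3907 and 3872 to 2134 and 2334, whereas *Tgfb3* rose from 119.8 and 125 to 242 and 246. *Bmp7* rose from 2682 and 2595 to 4271 and 4038, *Id2* rose, and *Bmp6*, *Id3* and the receptor *Bmpr1b* fell. *Bmp7* lost its call without vehicle pool B, and *Bmpr1b* without that pool or Cre-Tat pool A. The counts of called BMP genes were 2 higher without vehicle pool B, and 3 lower without Cre-Tat pool A, without vehicle pool A or with total counts.

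Calls among immune genes were mostly increases. Of 24 genes of antigen processing by the major histocompatibility complex (MHC), 9 rose and none fell. *Cd74*, the class II invariant chain, was counted at 463 and 518 in vehicle and 1396 and 923 in Cre-Tat, and its transactivator *Ciita* at 6.98 and 22.96 against 56.6 and 59.5. *H2-Aa*, *H2-Ab1* and *H2-Eb1* each rose by 1.21 to 1.24 on the log2 scale, and *B2m*, the light chain of class I, by 0.61. *H2-Oa* and *H2-Ob* rose from under 6 counts, and neither kept its call without Cre-Tat pool A, vehicle pool A or vehicle pool B. *Ciita* lost its call without vehicle pool A, and *B2m* without Cre-Tat pool A or vehicle pool B. When Cre-Tat pool A or either vehicle pool was left out, 5 MHC genes were called higher. Reads of *H2* genes may be split among near-identical copies.

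Of 43 interferon-inducible genes tested, 12 rose and none fell, with a median log2 fold change of 0.63. *Iigp1*, an immunity-related GTPase, showed the largest change, from 20.9 and 70.3 in vehicle to 225 and 343 in Cre-Tat. *Gbp4*, a guanylate-binding protein, was at 11.6 and 24.4 against 37.7 and 159, so that the rise came mostly from Cre-Tat pool B. *Ifi27*, the most abundant member, did not pass the test at 3532 and 3705 against 5012 and 3267. *Ifit1*, *Ifit2*, *Ifitm3*, *Irgm1*, *Gbp2*, *Gbp7*, *Ly6e* and *Nlrc5* rose by 0.55 to 1.35 on the log2 scale. *Gbp4* and *Nlrc5* lost their calls without Cre-Tat pool B. With total counts 20 members were higher, against 8 in DESeq2 and 9 with all 8 pools in 1 fit. When a pool was left out, the median log2 fold change of the list ran from 0.57 to 0.76.

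*Trim30a*, another inducible gene, rose from 65.1 and 84.7 to 148 and 194, and its promoter is shown because it holds the core of the interferon-stimulated response element, 2 GAAA runs with any NN between them, the site through which interferon factors bind. The 300 bases run from 250 before to 50 after the RefSeq start (chr7:104465144-104465443, minus strand, GRCm38.p6), with the match in capitals, on the strand opposite to the motif as named. Of 27025 RefSeq promoters of this length, 3.49% hold that core on either strand. It was in 4.42% of 611 higher genes and 3.57% of 532 lower genes, beside 3.0% of 10523 genes tested. Among the 31 interferon-inducible genes tested that had a promoter in the table, 64.5% held it, whether or not they rose. These shares were not compared by a test.
Trim30a promoter: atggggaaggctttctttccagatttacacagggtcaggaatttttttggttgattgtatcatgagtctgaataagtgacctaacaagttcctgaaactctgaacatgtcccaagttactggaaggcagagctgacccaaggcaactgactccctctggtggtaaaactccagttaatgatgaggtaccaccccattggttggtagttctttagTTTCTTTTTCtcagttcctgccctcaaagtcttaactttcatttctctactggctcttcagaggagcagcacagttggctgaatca
OTX2 is known to bind a core of TAATCC, which 7.16% of the same promoters hold on either strand. Of the called genes named here with a match, *Rpe65* had the largest increase and *Gnmt* the largest decrease, and their promoters are shown with the match in capitals, as its reverse complement. Only 10523 of the 14550 genes tested had a promoter in the table, so shares with a match describe those genes alone. The TAATCC core was in 4.42% of 611 higher genes and 5.83% of 532 lower genes, beside 5.76% of the 10523. No difference between these shares was tested. A match describes these letters and not a bound site.
Rpe65 promoter (chr3:159598931-159599230, plus strand): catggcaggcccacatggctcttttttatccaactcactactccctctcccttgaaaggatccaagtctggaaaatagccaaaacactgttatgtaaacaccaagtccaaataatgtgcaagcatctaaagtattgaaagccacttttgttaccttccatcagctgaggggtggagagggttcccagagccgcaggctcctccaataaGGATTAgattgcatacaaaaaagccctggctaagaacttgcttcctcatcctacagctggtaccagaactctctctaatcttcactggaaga
Gnmt promoter (chr17:46729116-46729415, minus strand): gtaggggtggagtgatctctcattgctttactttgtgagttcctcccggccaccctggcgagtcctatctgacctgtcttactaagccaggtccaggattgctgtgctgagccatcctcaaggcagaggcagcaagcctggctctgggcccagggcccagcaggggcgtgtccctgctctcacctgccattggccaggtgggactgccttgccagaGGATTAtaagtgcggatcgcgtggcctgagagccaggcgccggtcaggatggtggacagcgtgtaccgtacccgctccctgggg
*Rpe65*, the retinoid isomerase of the retinal pigment epithelium, was at 2.33 and 0 in vehicle and 25.7 and 21.9 in Cre-Tat. *Gnmt*, a methyltransferase that uses glycine, fell from 123 and 129 to 31.7 and 36.8. Of 11 photoreceptor and pigment epithelium genes tested, *Rpe65* alone rose, while *Arr3*, the cone arrestin, and *Dct*, a melanin enzyme, fell. *Arr3* went from 15.1 and 18.7 to 2.57 and 1.57. *Arr3* kept its call only without Cre-Tat pool A among the fits that left out a pool, and *Dct* lost its call without that pool.

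Complement genes rose in 6 of 20 tested, with none lower. *C3*, the central component, was counted at 12.8 and 4.30 in vehicle and 127 and 92.4 in Cre-Tat. *Cd55*, which protects cells from complement, rose from 1061 and 1005 to 3945 and 4111. *Hc*, *C3ar1*, *C1qa* and *C1qb* also rose, and *Hc* lost its call without vehicle pool A. Without Cre-Tat pool A, or in DESeq2, 1 complement gene was lower. The macrophage and microglia markers rose in 7 of 11 tested, summing to 892 and 812 in vehicle and 1825 and 1335 in Cre-Tat, with none of the 13 at 0 in all pools. *Ptprc*, a marker of blood-derived cells, rose from 71.0 and 61.7 to 217 and 189, and *Csf1r* from 179 and 194 to 365 and 260. Without Cre-Tat pool A, 2 macrophage markers were called. Lymphocyte and plasma cell markers summed to 66.3 and 116 in vehicle and to 1462 and 344 in Cre-Tat, with *Igkc*, *Jchain* and *Ighm* higher among 5 tested. The part of these cells in the rise of immune genes was not tested.

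Cytokines, chemokines and acute phase genes gave 6 increases and 3 decreases among 22. *Tnfrsf11b*, the decoy receptor osteoprotegerin, rose from 6.98 and 21.5 to 167 and 209, and the chemokine *Ccl6* from 17.4 and 17.2 to 84.0 and 91.6. *Cxcl13*, *Icam1*, *Tnfrsf1b* and *Ccl12* also rose. *Ccl12* lost its call when any of the 4 pools was left out. The decreases were the beta-defensin *Defb11*, the chemokine *Ccl9* and the adhesion molecule *Vcam1*, which kept its call only without Cre-Tat pool A. *Defb11* was at 435 and 195 in vehicle, so that the vehicle pools differed, and at 89.2 and 84.6 in Cre-Tat.

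Motile cilia genes rose in 12 and fell in 1 of 37 tested, with a median log2 fold change of 0.40. *Foxj1*, the transcription factor that drives motile ciliogenesis, was at 1594 and 1326 in vehicle and 2833 and 2939 in Cre-Tat. *Ccdc40*, needed to assemble dynein arms, rose from 133 and 122 to 707 and 842, and *Cfap46*, of the central pair apparatus, from 179 and 145 to 366 and 538. *Cfap54*, the most abundant member, did not move beyond the spread of the pools, at 4792 and 4842 against 4253 and 5493. With total counts 19 were higher, against 10 in DESeq2 and 8 with all 8 pools in 1 fit. The ependymal sum given above was higher in the same pools, and its part was not tested.

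Of 26 transcription factors of the choroid plexus and hindbrain, 5 rose and none fell. Beside *Otx2* they were *Hopx*, from 749 and 869.6 to 2712 and 2151, *Msx1*, from 1945 and 1848 to 3824 and 3213, and the zinc finger genes *Zic2* and *Zic4*. Among intermediate filament genes, *Vim* rose from 1325 and 1141 to 6086 and 4880 and *Gfap* by 0.87 on the log2 scale, whereas the epithelial keratin *Krt18* and *Synm* fell. *Sncg*, gamma-synuclein, rose from 74.4 and 47.4 to 814 and 662. *Gfap* lost its call without vehicle pool B and *Krt18* without vehicle pool A.

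Antioxidant and peroxisomal enzymes rose in 9 and fell in 5 of 44 tested. Beside *Gpx3* and the metallothioneins, *Acox2*, a peroxisomal oxidase of bile acid precursors and branched fatty acids, rose from 32.6 and 45.9 to 199.7 and 171. *Gstm1*, *Gstt1*, *Prdx6*, *Txnip* and the regulator *Nfe2l2* rose by 0.52 to 0.97 on the log2 scale. The desaturases *Scd1* and *Scd2*, together with *Gpx8*, *Nqo1* and *Gnmt*, fell; *Scd2* kept its call only without Cre-Tat pool A. The lower enzymes numbered 2 without vehicle pool A and 3 without Cre-Tat pool B, and with total counts 14 were higher and 2 lower.

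Among p53 targets and immediate early genes, 6 of 23 rose and none fell. The p53 targets *Mdm2* and *Eda2r* moved alike in both Cre-Tat pools, *Mdm2* from 1938 and 1909 to 3226 and 3192 and *Eda2r* from 27.9 and 22.96 to 87.4 and 71.3. The immediate early genes came mainly from Cre-Tat pool A: *Fos* was at 225 there and 63.4 in pool B, against 33.7 and 38.8 in vehicle, and *Egr1* at 358 and 97.9 against 67.5 and 48.8. Without Cre-Tat pool A, *Fos*, *Egr1* and *Junb* lost their calls and 3 members remained called.

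Transcripts of the mitochondrial genome rose in 10 of 20 tested, with none lower and a median log2 fold change of 0.83. They took 29.7% and 27.6% of gene counts in the Cre-Tat pools and 24.2% and 22.1% in the vehicle pools. Most of these counts were of the ribosomal RNAs *mt-Rnr1* and *mt-Rnr2*, which were not called (log2 fold change 0.32 ± 0.26 and 0.07 ± 0.31). That share was highest in Cre-Tat pool A. The messenger RNAs of complex I and III subunits were highest in Cre-Tat pool B: *mt-Nd5* was at 15138 and 16721 in vehicle, 20626 in Cre-Tat pool A and 45430 in pool B. *mt-Cytb* followed the same order, at 31339 and 27766 against 38484 and 69659. The ribosomal RNA *mt-Rnr2* did not separate the groups, at 3006698 and 2513863 against 3121916 and 2686596. Without Cre-Tat pool B, 6 mitochondrial genes were called, and DESeq2 called 4. Of 91 nuclear genes of the respiratory chain, 3 rose (*Cox5a*, *Cox8b* and *Ndufab1*) and none fell, a share below that over all genes. Without Cre-Tat pool A 3 of them were lower, without vehicle pool B 1 was lower, and without Cre-Tat pool B or with total counts 5 were higher. Of 72 ribosomal protein genes, *Rpl7a* alone fell, or 2 genes without Cre-Tat pool A, and of 19 cell cycle genes *Cdk1* alone, from 67.5 and 63.1 to 35.1 and 15.7, a call lost without Cre-Tat pool B. Without that pool or vehicle pool B, 2 cell cycle genes were higher.

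In LV ChP of the same treatment, 795 of the 815 higher genes that were testable there had a log2 fold change of the same sign, and 711 of the 722 lower genes. Of these, 269 and 138 were also called in LV in the same direction. The same-sign share over all genes tested is not set beside these counts, so they describe the called genes alone. LV and 4V tissue came from mice of the same treatment, *Ddx3y* was low in Cre-Tat pool B of both, and pools of the 2 ventricles may share animals, whereas the fit took the 8 pools as separate samples. A test of the difference between ventricles, 4V minus LV, called 1 gene of 15565 (0.00642%), *Gpr176*, an orphan G protein-coupled receptor. It was counted at 32.6 and 20.1 in the vehicle 4V pools and 213 and 220.1 in the Cre-Tat 4V pools, beside 39.8 and 65.4 against 46.7 and 54.4 in LV. The interaction was 3.07 ± 0.42 on the log2 scale (edgeR adjusted p = 0.0388). Its interaction was called in 3 of the 8 fits that left out a pool, and these fits called 0 to 3 genes each. *Slitrk6*, *Edn3*, *Sncg*, *Fmod* and *Tgfb3* had larger estimates in 4V than in LV, but their interaction did not pass the threshold. DESeq2 called *Slitrk6*, *Edn3* and *Sncg* together with *Gpr176* and *Colec12*, 5 genes in all. *Tgfb3*, for example, had a log2 fold change of 1.00 ± 0.18 in 4V and -0.02 ± 0.17 in LV. For *Kcnd1*, the estimate was -2.43 ± 0.59 in 4V, where DESeq2 did not call it, and 1.46 ± 0.57 in LV, where it did not pass (edgeR adjusted p = 0.231). Its interaction was not called (edgeR adjusted p = 0.392).

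**Figure D5:**
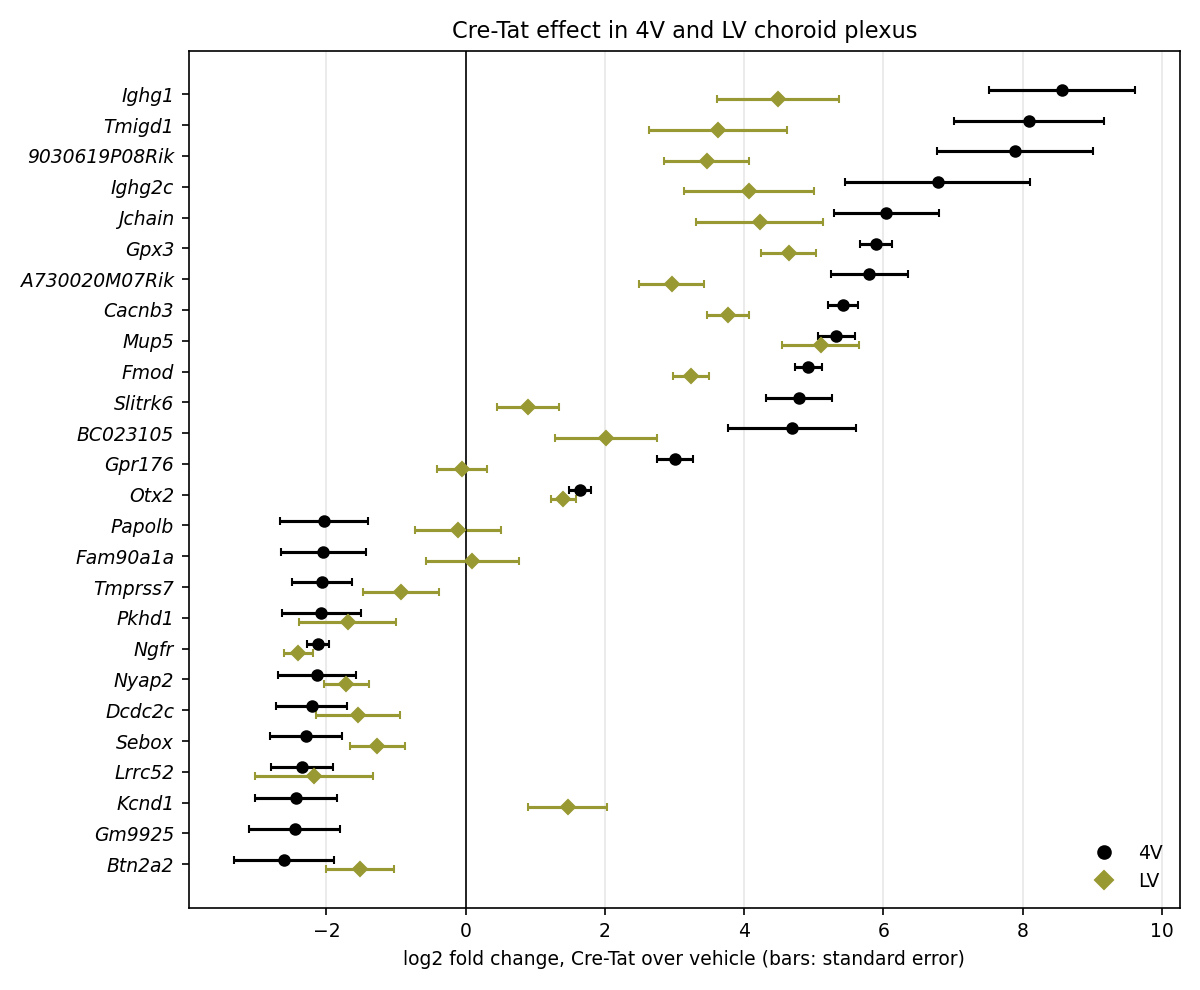
Log2 fold change, Cre-Tat over vehicle, in 4V (black circles) and LV (olive diamonds) for the genes of the largest changes in 4V, with *Gpr176* and *Otx2*. Bars are standard errors derived from the log2 fold change and the F statistic of the edgeR test. Fold changes of genes with no counts in vehicle, such as *Tmigd1*, depend on the prior count of the fit, and *Gm9925* was not tested in LV. *Gpr176* sits at 3.01 in 4V and -0.06 in LV.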

How the data were processed

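RNA-seq libraries were made from 4V ChP pools of mice given Cre-Tat or vehicle. Per the labels, ribosomal RNA was depleted and libraries were strand-specific with 50-base reads, whereas the study's methods describe polyA+ RNA. The deposited values are raw read counts per transcript, which the authors made, per the submitters' processing notes, with bcl2fastq 1.8.4, Bowtie 0.12.9, SAMtools and HTSeq 0.5.3 on mm10, beside DESeq 1.8.3; the strand setting of the counting is not given in the sources used here. Counts of overlapping genes, *Otx2* and *Igf2* among them, may therefore include reads of their partners.

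Files were joined to pools by the library number they carry, and the 2 runs of a pool were summed. Of 95533 transcripts, 82807 matched the gene annotation (GRCm38), giving 33984 genes, of which 12321 had 2 or more transcripts; 12726 transcripts did not match and held 10.4% to 11.8% of counts in the 4V pools. A gene's value was taken from 1 transcript, that with the largest count summed over the 22 files. Counts per pool ranged from 10558002 to 18087363 over these genes.

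Genes were filtered with filterByExpr, scaled by TMM and tested with edgeR 4.0.16 (quasi-likelihood, Benjamini-Hochberg, threshold 0.05) in R 4.3.3 on the 4 pools, and the treatment by ventricle interaction on 8 pools. DESeq2 1.42.0 was an alternative, beside other scalings, filters, a replicate block, thinned counts, summed transcripts, files as attached and each pool left out. For edgeR, a standard error (SE) was derived as the absolute log2 fold change over the square root of the F statistic. Scripts were tested on simulated data. Tables and plots used Python 3.11.15, pandas 2.3.3 and matplotlib 3.10.9. The pools of a group held separate mice, and p-values measure the spread between these pools.

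Named genes were *Otx2*, the 12 largest changes each way with a mean count above 10 and no overlap between groups, up to 4 called members of each list with the largest change and its 2 most abundant members, genes called for the interaction, and genes whose 4V values the study prints. Further members are named as examples after their values were seen. A few genes that the rule would name are not reported here. The comparison, its gene lists and its markers were chosen with earlier results of these data known.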

Additional observations from a re-analysis of the deposited data

Results flagged for a closer look

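The effect of the Cre-Tat label on *Gpr176* differed between ventricles, by 3.07 on the log2 scale for 4V minus LV (SE 0.42). It was the 1 gene of 15565 called by edgeR's quasi-likelihood test of the interaction (adjusted p = 0.0388). Of these genes, 416 had an unadjusted p under 0.05, a smaller share than that cutoff would pass if no gene differed. All 4 LV pools held 39.8, 65.4, 46.7 and 54.4 counts, the first 2 being vehicle. *Gpr176* overlaps a gene on its own strand, so that its reads may not be fully separated.

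Transcripts that matched no gene of the annotation entered no comparison above. Tested in the same way, 348 of 6866 were higher and 289 were lower in the pools labelled Cre-Tat, relative to the vehicle pools.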

How the results depend on the processing

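Against 829 higher and 725 lower genes, total-count scaling gave 1316 and 426. With pool letter as a replicate block, 1571 were higher and 1543 lower and the interaction called 2 genes; the 2 pairs do not establish a pairing (correlation of deviations 0.14). Files joined as attached gave 4354 higher and 4388 lower, but these sums mix libraries: of 138 named calls 31 were kept, 96 reversed and 11 were lost. Leaving out a pool gave 548 to 909 higher and 357 to 756 lower genes, with vehicle pool A at the low end of both. DESeq2's size factors, either filter, all 8 pools in 1 fit, summed transcripts, thinning and DESeq2 itself moved the counts by less than 1.5 times, the latter to 591 and 558.

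The interaction called 5 genes with DESeq2, 31 with no filter, 0 with a mean count above 10 (365 at an unadjusted p under 0.05; edgeR) and 0 to 3 without a pool, where the 4 fits with 0 calls in edgeR had 395 to 520 genes at an unadjusted p under 0.05.

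Of 140 named calls, 111 to 122 were kept without a pool, 122 in DESeq2, 132 with total counts, 123 with 8 pools and 126 with summed transcripts; no called gene changed sign in these fits. Sign changes were of genes called in neither fit. With total counts, log2 fold changes turned to 0.06 for *Timp3*, 0.11 for *Ccng1*, 0.07 for *Acly*, 0.11 for *Cgnl1* and 0.06 for *Cntn1*, and with summed transcripts to -0.01 for *Lrp6*. Without a pool they ran from -0.55 to 0.06 for *Ccnd2*, from -0.1 to 0.04 for *Cgnl1*, from -0.15 to 0.47 for *Ifi27*, from -0.18 to 0.19 for *Cfap54*, from -0.13 to 0.13 for *Lrp6*, from -0.16 to 0.03 for *Acly* and from -0.09 to 0.04 for *Ccng1*. The cause of these shifts was not tested. Counts per list under each alternative were added after seeing the data. With 2 pools a group, a difference that was not called may be below what these pools can detect.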
